A study of Mus musculus with 36 samples.

Results

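The 60 genes described here are protein-coding genes of cultured muscle cells whose RNA level was high when a bout of electrical pulse stimulation (EPS) ended and lower again after recovery. They were chosen by ratios of group means taken on the 18 control libraries, and the filter on low values counted all 36 libraries. Among the 12581 protein-coding genes with at least 1 CPM (counts scaled by library size) in at least 12 of 36 libraries, 1256 had a log2 ratio of EPS 0h to Rest of at least 0.5, taken on group means plus 0.5 CPM. The 60 of those 1256 with the lowest log2 ratio of EPS 3h to EPS 0h are the members, and they are called transiently induced genes below. Because the rise and the fall in control myotubes chose the members, both are given as description without a test.

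The cells were C2C12 myotubes, the multinucleate fibres that this mouse myoblast line, derived from a single cell, forms when serum is lowered. All 6 groups, Rest, EPS 0h and EPS 3h in control and in *Tug1* KD myotubes, were transfected on day 3 of differentiation with an antisense locked nucleic acid (LNA), which was either a negative control or the study's LNA against the long non-coding RNA *Tug1*, and were used on day 4. EPS lasted 3 h (13 V, 66 Hz, pulses of 2 ms, with 5 s trains parted by pauses of 5 s). Rest wells held electrodes without current. EPS 0h wells were lysed when the current ended and EPS 3h wells were left to recover for 3 h more. The study's methods name no Rest wells kept through those 3 h. Recovery and the added time in culture therefore cannot be told apart at EPS 3h. Each group has 6 libraries, which the study's methods give as 3 wells from each of 2 independent experiments, so wells of an experiment are not independent cultures and p-values partly measure technical spread.

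Contracting muscle switches on a wave of genes within minutes to hours. The earliest wave encodes transcription factors of the AP-1 and EGR families, and genes whose RNA falls again soon after the stimulus need both a transcription signal that stops and an RNA that decays. Among pathways that act on this time scale in muscle are the integrated stress response, in which the factor ATF4 switches on genes when amino acids or protein folding are disturbed, glucocorticoid and fasting signals that raise *Klf15*, and Notch and BMP signals that hold muscle precursors undifferentiated.

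The depth lay between 17005079 and 24181167 counts on genes in each library. Levels are given as TMM-scaled RPM (reads scaled to library size with trimmed mean of M values scaling), from the lowest to the highest of the 6 libraries of a group, and 14 of the 60 members had a mean below 5 RPM in every group. Scaling by library size alone, as the rule does, shifts the median gene by −0.17 on the log2 scale at EPS 3h against Rest in control myotubes. *Tug1* itself was lower with its LNA at Rest (log2FC −0.83 ± 0.17 (SE), FDR = 0.000915), EPS 0h (−0.57 ± 0.17, FDR = 0.0178) and EPS 3h (−0.51 ± 0.17, FDR = 0.0414). The 10 myotube markers were all detected, with a summed level of 13710 to 20020 RPM over the 36 libraries, and the 8 markers of undifferentiated or dividing myoblasts summed to 138.5 to 226.7 RPM. Markers of adipocytes and of endothelium each summed to at most 3.40 RPM, those of macrophages to at most 5.43 RPM and those of osteoblasts to at most 8.72 RPM, and the 2 neuronal markers had a median sum of 75.6 RPM at Rest and 43.1 RPM at EPS 3h in control myotubes. The macrophage marker *Adgre1* and the osteoblast marker *Ibsp* were at 0 in all libraries of 4 and 5 groups.

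In rank order, 59 of the members are *Klf15*, *Chac1*, *Gbx1*, *Myf5*, *Ppp1r3c*, *Dlx2*, *Thbd*, *Wnt2b*, *Cln3*, *Nog*, *Tor4a*, *C2cd4c*, *Otub2*, *Impg2*, *Tmc4*, *Bhlhe41*, *Bicdl2*, *Zc3hav1l*, *Snai2*, *Herpud1*, *Ankrd34a*, *BC048403*, *Vinac1*, *Igf2bp3*, *Pdik1l*, *Usp17la*, *Zfp493*, *Dusp2*, *Tnfsf15*, *Dok3*, *Hsd17b1*, *Hal*, *Lrrc32*, *Mgat3*, *Slc25a25*, *Hmx2*, *Lpar2*, *Ddit4*, *Kcnj2*, *Zfp469*, *Fgf21*, *Sesn2*, *Galr2*, *Txnip*, *Slco4a1*, *Fam78b*, *Eme2*, *Tbx1*, *Bglap3*, *Prickle2*, *Rel*, *Hey1*, *Rad9a*, *Tet3*, *Dll1*, *Sox9*, *Cep350*, *Vdr* and *Zfp36l1*. The log2 ratio of EPS 3h to EPS 0h used for ranking ran from −1.42 for *Klf15* to −0.49 for *Zfp36l1*. Just inside the limit were *Cep350* at −0.49, *Vdr* at −0.49 and *Zfp36l1*, and just outside it were *Cep162* at −0.48, *Trp53bp1* at −0.48 and *Plau* at −0.48. Among the members nearest the limit on the rise were *Eme2* at 0.51 and *Bhlhe41* at 0.52. Ranking values therefore ran on without a gap at the limit.

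None of the AP-1, EGR or heat shock genes was a member. Of the 11 AP-1 and ATF factors tested 5 passed the rise limit in control myotubes, of the 14 EGR, IER and SRF targets 5 did, and of the 12 heat shock genes 11 did. Heat shock genes had a median log2 ratio of EPS 3h to EPS 0h of 0.74 in control myotubes. With *Tug1* KD 10 of the 12 were higher at EPS 3h than at EPS 0h and none was lower, against 8.59% and 7.13% of all genes tested. The members belonged to other families. Of the 60, 14 encode transcription factors, 11 encode secreted or surface proteins, 7 metabolic enzymes or carriers, 6 signalling regulators, 5 stress response proteins, 4 chromatin, DNA repair or centrosome proteins, 3 channel or lysosome proteins and 3 RNA-binding proteins, and 7 fell in none of these classes. These 9 role classes were set after the values had been seen.

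**Figure D1:**
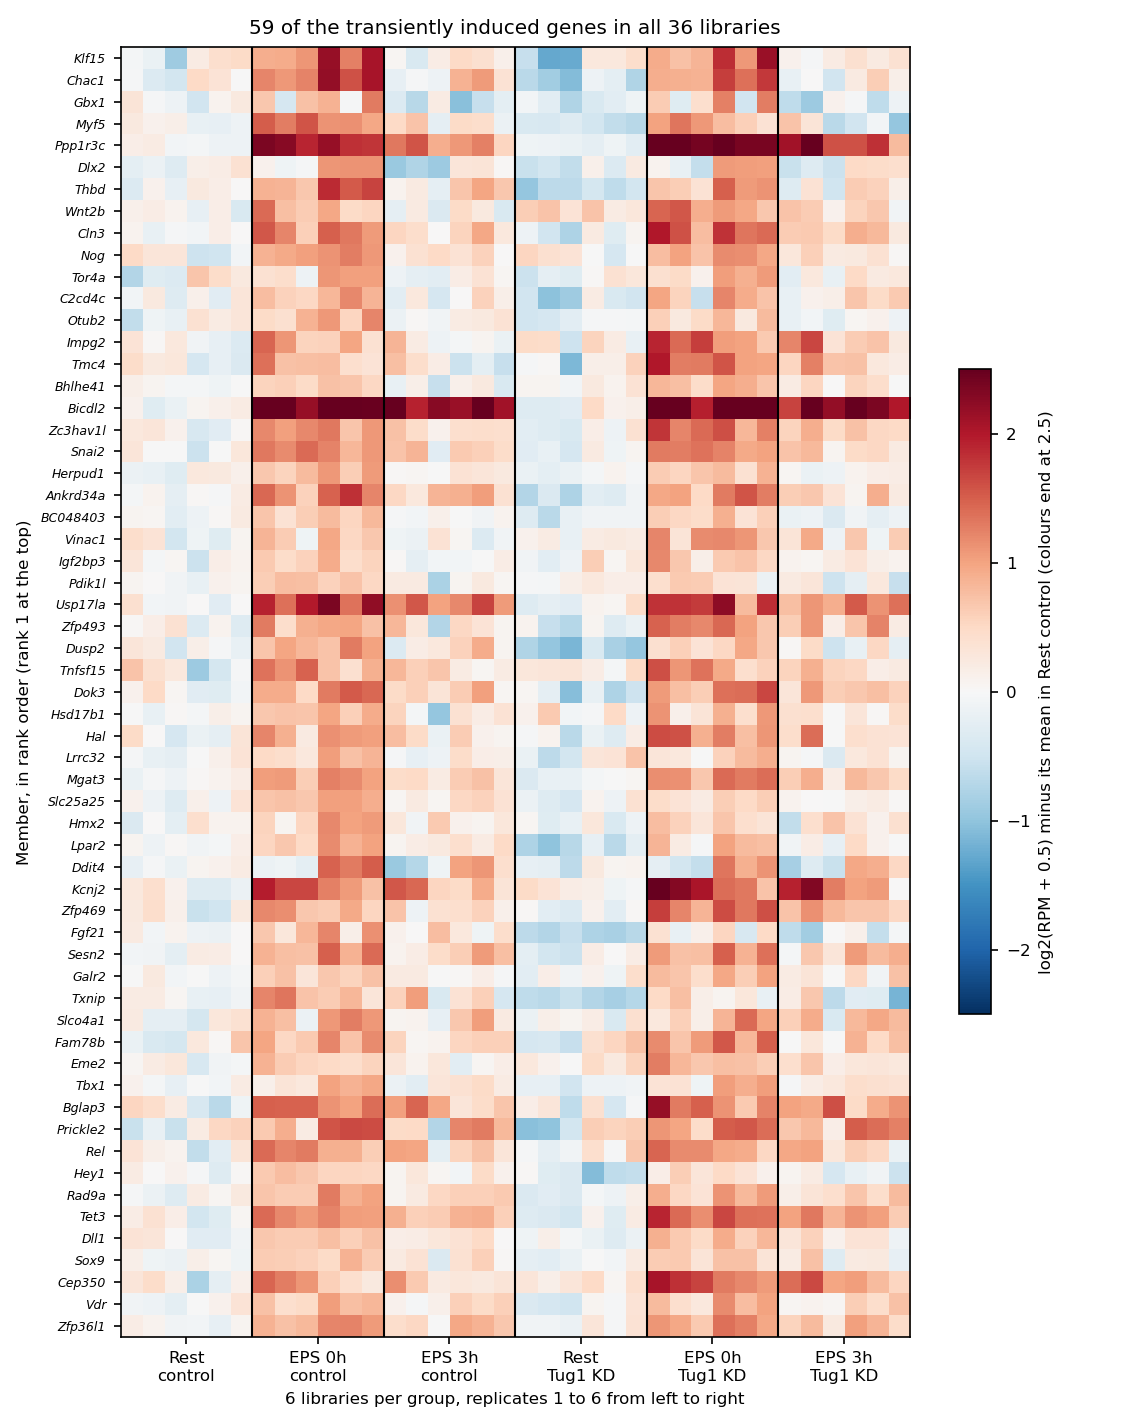
Level of 59 of the members (rows, in rank order) in each of the 36 libraries (columns, 6 per group, parted by black lines), as log2(RPM + 0.5) minus the mean of that gene in Rest control. Both EPS 0h blocks are red in nearly every row and both EPS 3h blocks are paler, the control blocks by choice of the members, and Bicdl2, Ppp1r3c and Usp17la stay red at EPS 3h.

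In control myotubes the median member was at a log2FC of 0.96 at EPS 0h against Rest (range 0.58 to 3.44) and of −0.64 at EPS 3h against EPS 0h (range −1.40 to −0.40). The median share of the log2 rise that was lost by EPS 3h was 64.5%, 47 of 60 members lost at least 50% of it, and 6 members, *Gbx1*, *Dlx2*, *Tor4a*, *Bhlhe41*, *Vinac1* and *Igf2bp3*, lost 100% or more. At EPS 3h the median member was at a log2FC of 0.33 against Rest, and 54 of 60 were above Rest and 6 below. These control values restate the choice of the members.

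The 18 *Tug1* KD libraries took no part in the ratios that chose the members, only in the filter on low values. There 6 of the 60 members reached 12 libraries only with them. For these 6 the filter drew on the libraries that are tested below. They stay in the counts, and counts without them are not given here. The *Tug1* KD libraries show whether the same genes rise and fall in other wells, but they are not independent of the control libraries. Deviations from group means in same-numbered *Tug1* KD and control libraries had a median correlation across genes of 0.345 at Rest. It was 0.703 at EPS 0h and 0.582 at EPS 3h. The part of this shared deviation in the counts below was not tested. At EPS 0h, 57 of the 60 members were higher than at Rest (FDR under 0.05), against 24.4% of all 13995 genes tested that were higher there, and 0 were lower, against 21.2% of all genes. The median member was at a log2FC of 1.04 (range 0.29 to 3.63), and the median of all genes was −0.03. A level measured in a whole well cannot tell fewer cells from less RNA per cell. In 41 members (68.3%) all 6 EPS 0h libraries lay above all 6 Rest libraries, against 13.0% of all genes tested. The 1196 other genes past the rise limit had 98.1% called higher and a median of 1.13.

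By EPS 3h the *Tug1* KD level of all 60 members had a fitted value below EPS 0h. The fall passed the test in 35 of 60, against 7.13% of all genes tested that were lower, and 0 members were higher, against 8.59% of all genes. The median member was at −0.56 (range −1.23 to −0.12), and the 1196 other genes past the rise limit had a median of 0.18, with 1.67% called lower and 29.7% called higher. With the replicate number as a block the count of members called lower was 51, and in replicates 1 to 3 alone it was 16. Scaling by library size alone gave 45, and it shifts the median gene by −0.08 in this comparison. The share of all genes called under these 3 fits is not given here, so the counts show only how far the processing moved them.

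The complete course, a called rise and a called fall, was met by 34 of 60 members in *Tug1* KD myotubes, against 1.45% of all genes tested and 1.67% of the other genes past the rise limit. In 16 of those 34 the EPS 3h level was not called above Rest, which is 26.7% of the members, against 1.04% of all genes tested and 0.334% of the other genes past the rise limit. At EPS 3h against Rest, 34 of 60 members were still higher, against 26.2% of all genes, and 0 were lower, against 25.9% of all genes, with a median of 0.52 (range −0.17 to 2.75). A count of 0 lower was given also by DESeq2 and limma-voom, and the 4 members with a fitted value below Rest had an unadjusted p under 0.05 in 0 cases. The median share of the log2 rise lost by EPS 3h was 52.3% in *Tug1* KD myotubes, and 32 of 60 lost at least 50%.

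**Figure D2:**
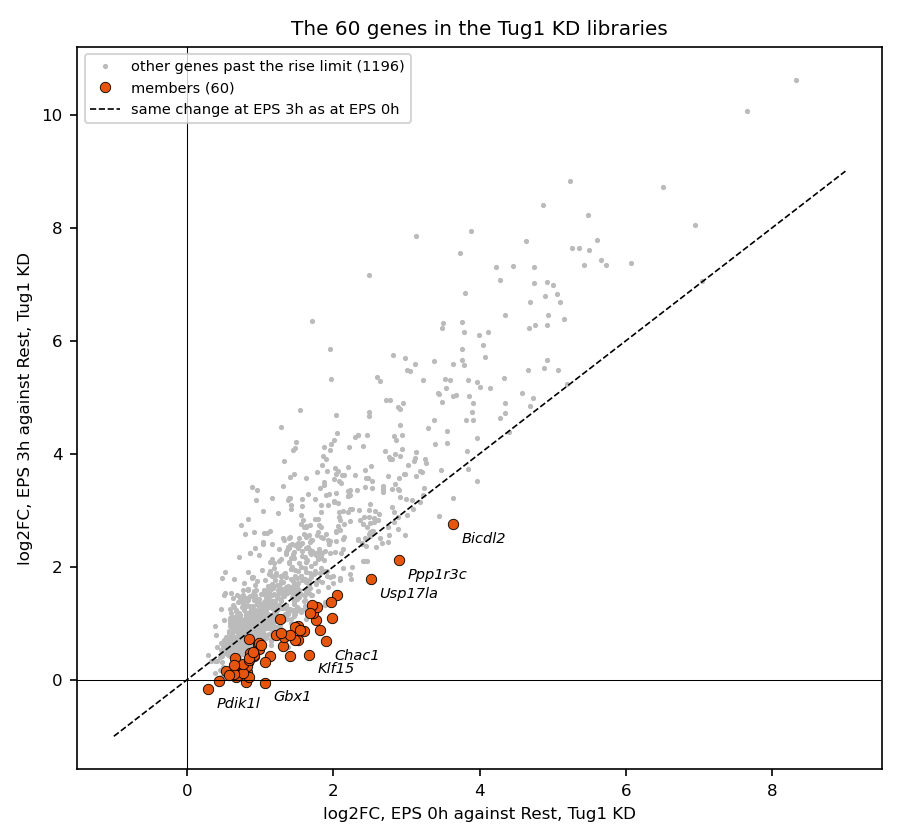
Change at EPS 0h (horizontal axis) and at EPS 3h (vertical axis) against Rest in Tug1 KD myotubes, both as log2FC, for the 60 members (orange) and the 1196 other genes past the rise limit (grey). All 60 members lie below the dashed line of equal change, and the median of the grey points lies 0.18 above EPS 0h at EPS 3h.

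The rule was also applied to the *Tug1* KD libraries and to each set of control replicates. The control sets are parts of the libraries that chose the members, so their overlap with the members is partly built in. An overlap expected without a shared course is not given. In the 18 *Tug1* KD libraries the rule chose 32 of the 60 members again. It chose 32 in control replicates 1 to 3 and 41 in control replicates 4 to 6, and 20 members were chosen in both sets. The 15 chosen under all of the other settings of the rule were *Klf15*, *Chac1*, *Myf5*, *Ppp1r3c*, *Thbd*, *Wnt2b*, *Cln3*, *Otub2*, *Bicdl2*, *Zc3hav1l*, *Herpud1*, *Ankrd34a*, *Usp17la*, *Tnfsf15* and *Mgat3*. When 60 genes were chosen in control replicates 1 to 3 and read in replicates 4 to 6, 56 were above Rest at EPS 0h and 55 were below EPS 0h at EPS 3h, with medians of 0.88 and −0.46 in control myotubes. In the opposite direction 56 were above Rest and 56 below EPS 0h, with medians of 0.64 and −0.62. Genes chosen in control replicates 1 to 3 had medians of 0.82 and −0.49 in *Tug1* KD replicates 4 to 6. In the opposite direction the *Tug1* KD medians were 1.02 and −0.54.

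Transcription factors were the largest class, and all 14 were called above Rest at EPS 0h in *Tug1* KD myotubes. At EPS 3h 8 were called lower than at EPS 0h and 6 were still above Rest. The shares of all genes tested were 24.4%, 7.13% and 26.2%. *Klf15*, a zinc finger factor that controls amino acid and lipid use in muscle, ranked 1. Its level in control myotubes was 2.21–6.53 (median 4.85) RPM at Rest, 8.904–22.3 (median 10.98) RPM at EPS 0h and 3.35–6.66 (median 5.12) RPM at EPS 3h. In *Tug1* KD myotubes it was 1.57–6.33 (median 4.21), 7.85–22.04 (median 9.64) and 4.41–6.19 (median 5.37) RPM. Every EPS 0h library of *Klf15* lay above every Rest and every EPS 3h library in both LNA groups, and the *Tug1* KD rise (log2FC 1.67 ± 0.31 (SE), FDR = 4.08e-05) and fall (log2FC −1.23 ± 0.31 (SE), FDR = 0.00416) both passed the test. Its *Tug1* KD log2FC at EPS 0h was 2.08 over replicates 1 to 3 and 1.51 over 4 to 6.

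*Myf5*, the myogenic factor that marks committed myoblasts, was at 11.6–15.8 (median 13.4) RPM at Rest, 26.5–40.9 (median 31.5) RPM at EPS 0h and 11.3–22.3 (median 18.5) RPM at EPS 3h in control myotubes. With *Tug1* KD it went from 8.11–10.6 (median 9.79) to 17.2–34.6 (median 25.1) and back to 6.63–22.1 (median 11.2) RPM. The *Tug1* KD rise (log2FC 1.41 ± 0.21 (SE), FDR = 9.49e-07) and fall (log2FC −0.99 ± 0.20 (SE), FDR = 0.000497) passed the test. All 6 *Tug1* KD libraries lay below all 6 control libraries at Rest, but that difference did not pass the test (log2FC −0.50 ± 0.21 (SE), FDR = 0.13). *Myf5* is also among the 8 myoblast markers. Their summed level was highest at EPS 0h in control (median 215.8 RPM against 186.4 at Rest) and in *Tug1* KD myotubes (193.3 against 165.3). The sum holds *Myf5* itself, whose median went from 13.4 to 31.5 RPM in control and from 9.79 to 25.1 RPM in *Tug1* KD myotubes. A sum without *Myf5* is not given, and the part of the other markers in the *Myf5* values was not tested.

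*Snai2*, a repressor linked to migration and to undifferentiated precursors, went from 31.6–56.4 (median 45.6) RPM at Rest to 81.6–124 (median 107) RPM at EPS 0h and 37.5–83.5 (median 71.3) RPM at EPS 3h in control myotubes. In *Tug1* KD myotubes the medians were 41.4, 110.3 and 65.1 RPM, and all 6 EPS 0h libraries were above all Rest and all EPS 3h libraries. The rise (log2FC 1.31 ± 0.15 (SE), FDR = 1.21e-08) and the fall (log2FC −0.71 ± 0.15 (SE), FDR = 0.000761) passed the test, and the level at EPS 3h was still above Rest (log2FC 0.60 ± 0.15 (SE), FDR = 0.00109).

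*Bhlhe41*, a basic helix-loop-helix repressor of the circadian clock, was at 123–146 (median 131) RPM at Rest, 185–222 (median 199) RPM at EPS 0h and 89.3–159 (median 131) RPM at EPS 3h in control myotubes. With *Tug1* KD its medians were 140.5, 231 and 168 RPM. The control libraries at EPS 3h overlapped those at Rest and spread more widely on both sides, and the *Tug1* KD libraries were at 131–196 (median 168) RPM there. Its change from EPS 0h to EPS 3h in *Tug1* KD myotubes was log2FC −0.48 ± 0.12 (SE), FDR = 0.00334.

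The homeobox genes *Gbx1*, *Dlx2* and *Hmx2*, which pattern the embryo, were low in these cells. *Gbx1* was at 1.81–7.06 (median 4.51) RPM at EPS 0h in control myotubes and 1.72–6.97 (median 3.95) RPM with *Tug1* KD, and both its rise (log2FC 1.06 ± 0.31 (SE), FDR = 0.00566) and its fall (log2FC −1.12 ± 0.32 (SE), FDR = 0.0118) were called in *Tug1* KD myotubes although the libraries of the groups overlapped. *Dlx2* was at 6.15–15.2 (median 11.1) RPM at EPS 0h in control myotubes and 4.22–14.5 (median 10.7) RPM with *Tug1* KD, where its rise was called (log2FC 0.83 ± 0.31 (SE), FDR = 0.0265) and its change to EPS 3h was not (log2FC −0.52 ± 0.31 (SE), FDR = 0.296). The *Dlx2* rise differed between sets of replicates, with a control log2FC of 0.23 in replicates 1 to 3 and 0.92 in replicates 4 to 6. *Hmx2* reached a median of 1.56 RPM in control myotubes and 1.17 RPM after *Tug1* KD at EPS 0h, and its change to EPS 3h in *Tug1* KD myotubes was not called (−0.35, FDR = 0.482).

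The other transcription factors of the class were *Zfp493*, *Zfp469*, *Tbx1*, *Rel*, *Hey1*, *Sox9* and *Vdr*. *Rel*, an NF-kB subunit, had a median of 32.7 RPM at Rest, 63.9 RPM at EPS 0h and 47.6 RPM at EPS 3h in control myotubes. *Sox9*, the chondrocyte factor that is also made in muscle precursors, was at medians of 113.6, 179 and 142 RPM, and *Vdr*, the vitamin D receptor, at 34.01, 58.9 and 43.6 RPM. *Zfp493* shares exon sequence on its strand with *Gm9625*, so its counts are uncertain.

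Of the 20 myogenic and developmental factors listed after the members were known, 16 were tested, 10 passed the rise limit in control myotubes and 7 were members. In *Tug1* KD myotubes 11 of the 16 were higher at EPS 0h than Rest, against 24.4% of all genes tested. At EPS 3h 8 were lower than at EPS 0h, against 7.13% of all genes. All 7 members are among the 11, and *Myf5*, *Gbx1*, *Snai2* and *Sox9* are among the 8. Both counts therefore partly follow from the choice of the members. *Myod1*, the myogenic factor next to *Myf5* in function, was not called at EPS 0h (0.13, FDR = 0.203) and fell at EPS 3h (−0.55, FDR = 1.18e-05). *Pax7*, the satellite cell factor, was higher by 0.34 at EPS 0h (FDR = 0.0414) and lower by EPS 3h (−0.85, FDR = 2.58e-05).

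Stress response genes included 4 that the integrated stress response is known to switch on, *Chac1*, *Herpud1*, *Ddit4* and *Sesn2*, and *Txnip*. *Chac1* encodes an enzyme that breaks down glutathione, and it ranked 2. Its libraries spanned 50.5–97.7 (median 68.2) RPM at Rest, 147–319 (median 187) RPM at EPS 0h and 59.9–146 (median 78.1) RPM at EPS 3h in control myotubes, and 32.6–63.6 (median 42.2), 127–237 (median 156) and 49.5–107 (median 72.9) RPM in *Tug1* KD myotubes. The EPS 0h libraries were above all others within each LNA group. The *Tug1* KD rise (log2FC 1.90 ± 0.24 (SE), FDR = 7.65e-08) and fall (log2FC −1.22 ± 0.24 (SE), FDR = 0.000271) passed the test, and EPS 3h stayed above Rest (log2FC 0.68 ± 0.24 (SE), FDR = 0.0153).

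*Herpud1*, which helps to clear misfolded proteins from the endoplasmic reticulum, was at 178–266 (median 219.9) RPM at Rest, 324–467 (median 368) RPM at EPS 0h and 220.0–282 (median 244) RPM at EPS 3h in control myotubes. With *Tug1* KD it was at 186–235 (median 206), 288–401 (median 350.3) and 195–252 (median 232) RPM. EPS 0h did not overlap Rest or EPS 3h in either LNA group, with log2FC 0.75 ± 0.11 (SE), FDR = 7.59e-07 for the rise and log2FC −0.62 ± 0.11 (SE), FDR = 5.33e-05 for the fall in *Tug1* KD myotubes, and EPS 3h was not called different from Rest there (0.13, FDR = 0.338).

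*Sesn2*, an inhibitor of mTORC1 signalling, rose in *Tug1* KD myotubes (log2FC 1.21 ± 0.18 (SE), FDR = 1.92e-06), and its change to EPS 3h was not called (log2FC −0.42 ± 0.18 (SE), FDR = 0.119). Its medians were 29.2, 55.1 and 43.8 RPM in control and 27.5, 59.05 and 49.9 RPM in *Tug1* KD myotubes. *Ddit4*, another mTORC1 inhibitor, was among the 3 members whose rise was not called in *Tug1* KD myotubes (log2FC 0.65 ± 0.37 (SE), FDR = 0.154). Its EPS 0h libraries spanned 29.99–102 (median 60.1) RPM in control myotubes and 23.4–90.5 (median 48.2) RPM after *Tug1* KD, and the spread followed the sets of replicates, with a control log2FC of −0.04 over replicates 1 to 3 and 1.32 over 4 to 6, and −0.06 and 1.01 in *Tug1* KD myotubes.

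A list of 24 genes of the integrated stress and unfolded protein responses, made after the members were known, was tested in full. It held 5 members, the 4 above and *Fgf21*. In *Tug1* KD myotubes 12 of the 24 were called above Rest at EPS 0h and 1 was lower, against 24.4% and 21.2% of all genes tested. At EPS 3h 5 were lower than at EPS 0h and 0 higher, against 7.13% and 8.59% of all genes. The 12 include the members *Chac1*, *Herpud1*, *Sesn2* and *Fgf21*, and the 5 include *Chac1* and *Herpud1*. Both counts therefore partly follow from the choice of the members, and counts without the members are not given. The medians were 0.36 and −0.21. At EPS 0h *Atf4* (−0.11, FDR = 0.56), *Ddit3* (0.13, FDR = 0.55) and *Hspa5* (0.07, FDR = 0.47) were not called. The 1 lower gene was *Atf5* (−0.90, FDR = 0.0016). *Asns*, asparagine synthetase, rose (0.95, FDR = 3.28e-10) and was not called lower afterwards (−0.21, FDR = 0.129). *Trib3*, a pseudokinase of the same response, did not pass the test at EPS 0h (0.62, FDR = 0.0928) but fell at EPS 3h (−1.41, FDR = 0.00104).

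**Figure D3:**
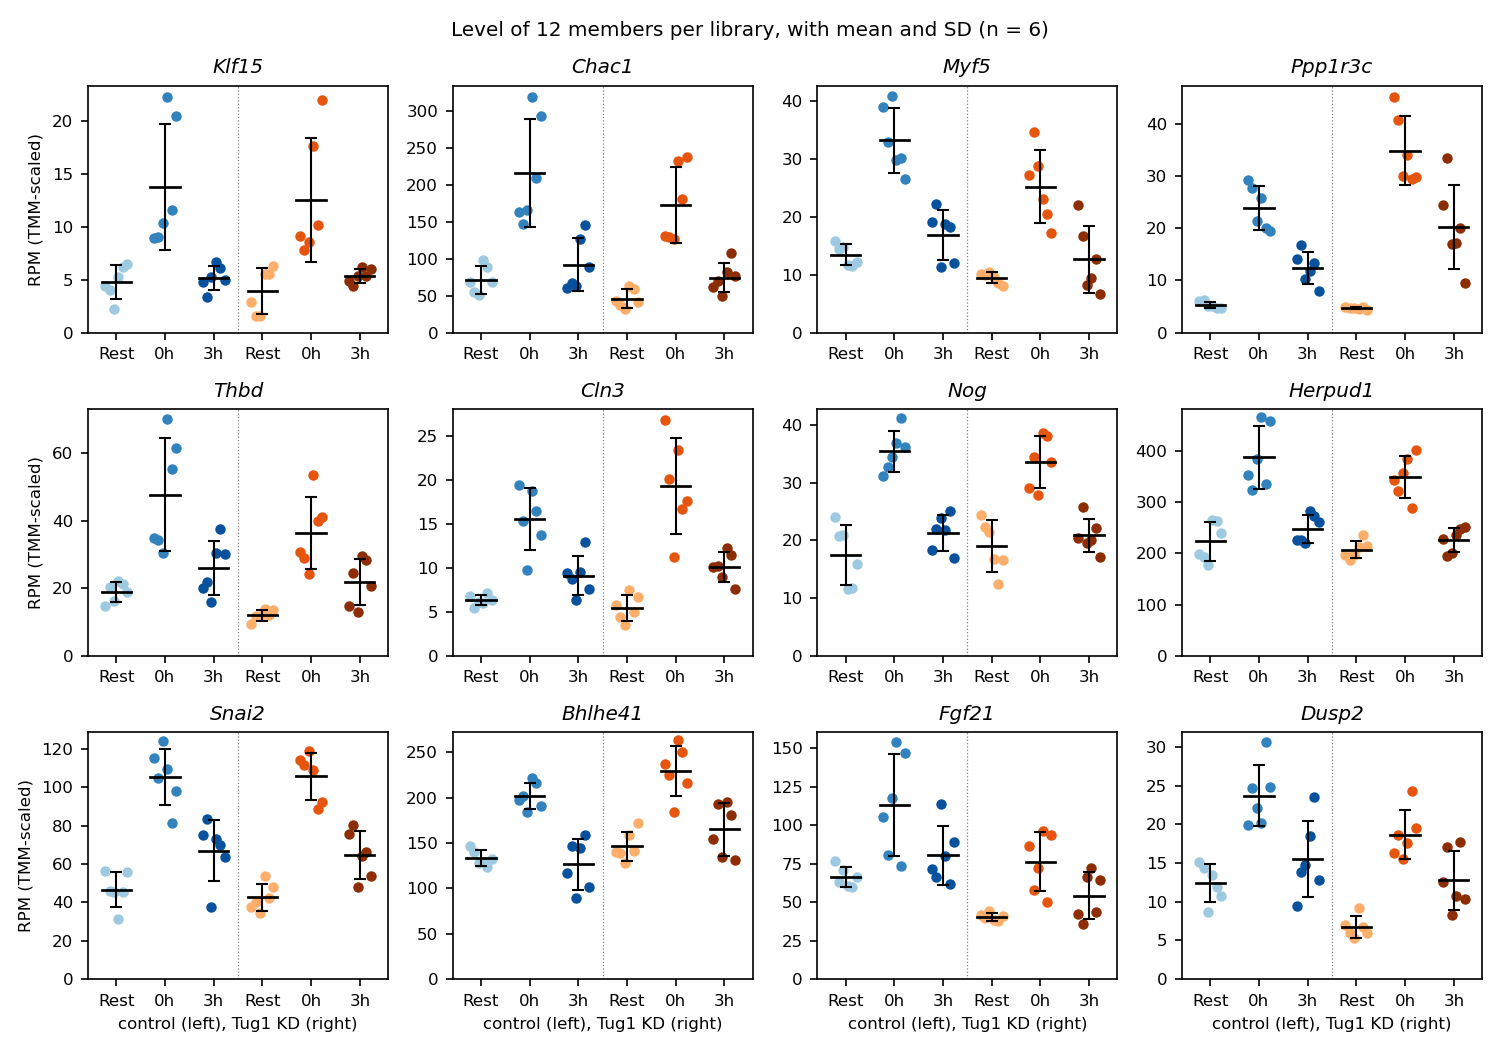
TMM-scaled level (RPM) of 12 members in each library, with control myotubes on the left and Tug1 KD myotubes on the right of each panel. Points are libraries, horizontal lines are means and bars are SDs (n = 6), and each axis starts at 0. In every panel the mean at EPS 0h is the highest within each LNA group, and Klf15 shows the widest spread between libraries at EPS 0h relative to its mean.

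Secreted and surface proteins made up 11 members. With *Tug1* KD 10 of them were called above Rest at EPS 0h, 6 fell by EPS 3h, and 6 were still above Rest. The shares of all genes tested were 24.4%, 7.13% and 26.2%. *Nog* encodes noggin, an antagonist that binds BMP ligands outside the cell. It was at 11.6–24 (median 18.4) RPM at Rest, 31.2–41.3 (median 35.4) RPM at EPS 0h and 17.04–25.2 (median 21.8) RPM at EPS 3h in control myotubes, and at 12.5–24.5 (median 19.1), 27.8–38.6 (median 33.96) and 17.2–25.7 (median 20.3) RPM in *Tug1* KD myotubes. No EPS 0h library overlapped Rest or EPS 3h within an LNA group (log2FC 0.82 ± 0.15 (SE), FDR = 4.8e-05 for the rise and log2FC −0.68 ± 0.15 (SE), FDR = 0.00152 for the fall in *Tug1* KD myotubes), and the level at EPS 3h was close to Rest (0.14 ± 0.16 (SE), FDR = 0.482).

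*Thbd*, thrombomodulin, a surface receptor for thrombin that endothelium also makes, went from 14.8–22.3 (median 19.6) to 30.3–70.02 (median 45.02) RPM and was at 16.04–37.6 (median 26.1) RPM at EPS 3h in control myotubes. In *Tug1* KD myotubes it went from 9.38–13.8 (median 11.9) to 24.2–53.5 (median 35.3) and 13.1–29.6 (median 22.6) RPM. The fall passed the test (log2FC −0.74 ± 0.22 (SE), FDR = 0.016), and EPS 3h was still above Rest (log2FC 0.86 ± 0.22 (SE), FDR = 0.0014). The 2 endothelial markers summed to at most 3.40 RPM in any library. *Wnt2b*, a WNT ligand, was near 1 RPM, at 1.41–3.16 (median 1.71) RPM at EPS 0h in control myotubes and 1.69–3.496 (median 2.24) RPM with *Tug1* KD, with a called rise (log2FC 0.80 ± 0.24 (SE), FDR = 0.00649) and fall (log2FC −0.84 ± 0.24 (SE), FDR = 0.0137).

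The members held a Notch ligand and a Notch target. *Dll1*, the ligand, had medians of 25.6, 41.5 and 30.8 RPM in control and 23.8, 44.2 and 32.8 RPM in *Tug1* KD myotubes. *Hey1*, a repressor that Notch switches on, had medians of 9.62, 14.6 and 10.1 RPM in control and 6.67, 11.9 and 8.53 RPM in *Tug1* KD myotubes. Both rose and fell in *Tug1* KD myotubes (falls of −0.47, FDR = 0.00277 and −0.50, FDR = 0.0123). Of 11 tested Notch ligands, receptors and targets listed after the members were known, 5 were higher and 3 lower at EPS 0h than Rest in *Tug1* KD myotubes. The shares of all genes tested were 24.4% and 21.2%. The 3 lower were *Hes1* (−0.92, FDR = 1.47e-05), *Lfng* (−1.33, FDR = 2.43e-08) and *Hes6* (−0.44, FDR = 0.012). At EPS 3h 3 were lower than at EPS 0h, against 7.13% of all genes tested, and these were the 2 members and *Heyl* (−0.48, FDR = 1.01e-05). *Jag1* and *Notch1* rose as well and were not called lower afterwards.

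*Fgf21*, a hormone that muscle releases under mitochondrial and amino acid stress, went from 60.1–77.02 (median 65.02) RPM at Rest to 73.7–154 (median 112) RPM at EPS 0h and 61.6–113.8 (median 75.9) RPM at EPS 3h in control myotubes. The *Tug1* KD libraries were at 37.6–44.5 (median 40.4), 49.9–96.6 (median 79.6) and 35.9–72.6 (median 53.97) RPM. The rise passed the test (log2FC 0.91 ± 0.18 (SE), FDR = 9.56e-05) and the fall did not (log2FC −0.49 ± 0.18 (SE), FDR = 0.0574). An exon of *Fut1* lies on the other strand within the *Fgf21* exons, and since the strand setting of the count is not given in the sources used here, reads of the 2 genes may not be told apart. Of the remaining members of this class, *Lrrc32*, which holds latent TGF-beta at the cell surface, was not called at EPS 0h (log2FC 0.44 ± 0.19 (SE), FDR = 0.0625), and *Tnfsf15*, *Lpar2*, *Galr2*, *Bglap3* and *Impg2* were, with log2FC of 0.82, 1.41, 0.77, 1.71 and 1.52. *Bglap3* has near-identical copies in *Bglap* and *Bglap2*, so its counts are uncertain. The 4 osteoblast markers, *Bglap* among them, had median sums of 1.35, 2.30 and 6.72 RPM at Rest, EPS 0h and EPS 3h with *Tug1* KD, and their part in the *Bglap3* values was not tested.

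Among signalling regulators, 5 of 6 were higher at EPS 0h and 4 fell by EPS 3h in *Tug1* KD myotubes, against 24.4% and 7.13% of all genes tested. *Dusp2*, a nuclear phosphatase that switches off MAP kinases, was at 8.63–15.1 (median 12.7), 19.9–30.6 (median 23.4) and 9.44–23.6 (median 14.3) RPM at Rest, EPS 0h and EPS 3h in control and at 5.25–9.24 (median 6.38), 15.6–24.3 (median 18.1) and 8.31–17.7 (median 11.6) RPM in *Tug1* KD myotubes. Its rise (log2FC 1.48 ± 0.19 (SE), FDR = 9.01e-08) and fall (log2FC −0.55 ± 0.18 (SE), FDR = 0.0378) were called, with EPS 3h still above Rest (0.93, FDR = 9.67e-05). It was the only member among the 18 genes of MAP kinase and receptor tyrosine kinase feedback, of which 9 were higher and 2 lower at EPS 0h and 3 were lower and 5 higher at EPS 3h against EPS 0h in *Tug1* KD myotubes. The shares of all genes tested were 24.4% and 21.2%, and then 7.13% and 8.59%. *Otub2*, a deubiquitinating enzyme, overlapped its Rest range again at EPS 3h (7.47–10.4 (median 9.47) RPM at Rest, 12.6–19.2 (median 15.5) at EPS 0h and 8.43–11.4 (median 9.82) at EPS 3h in *Tug1* KD myotubes). *Pdik1l*, a kinase, passed the rise limit in control but was not called in *Tug1* KD myotubes (log2FC 0.29 ± 0.16 (SE), FDR = 0.124), where its EPS 0h libraries spanned 7.68–13.7 (median 11.3) RPM against 12.5–14.9 (median 13.8) RPM in control myotubes. *Usp17la* has near-identical copies, so its counts are uncertain.

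All 7 metabolic enzymes and carriers were higher at EPS 0h in *Tug1* KD myotubes, and 5 of them fell by EPS 3h. The shares of all genes tested were 24.4% and 7.13%. *Ppp1r3c* targets protein phosphatase 1 to glycogen and promotes glycogen synthesis. Its level was 4.79–6.22 (median 5.08) RPM at Rest, 19.4–29.2 (median 23.5) RPM at EPS 0h and 7.95–16.8 (median 12.6) RPM at EPS 3h in control myotubes. With *Tug1* KD it was 4.32–4.91 (median 4.72), 29.4–45.1 (median 32.03) and 9.59–33.4 (median 18.5) RPM. Rest did not overlap the other groups, the fall was called (log2FC −0.78 ± 0.18 (SE), FDR = 0.00185), and EPS 3h remained above Rest (log2FC 2.11 ± 0.19 (SE), FDR = 2.08e-11). *Slc25a25*, a calcium-regulated carrier of ATP and phosphate across the inner mitochondrial membrane, had medians of 37.6, 66.9 and 46.4 RPM in control and 34.1, 52.6 and 39.1 RPM in *Tug1* KD myotubes.

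*Cln3*, a lysosomal membrane protein, was at 5.48–7.13 (median 6.29), 9.82–19.4 (median 15.9) and 6.35–12.9 (median 9.05) RPM in control and 3.48–7.46 (median 5.41), 11.2–26.9 (median 18.8) and 7.58–12.2 (median 10.2) RPM in *Tug1* KD myotubes at Rest, EPS 0h and EPS 3h, with a called rise (log2FC 1.81 ± 0.19 (SE), FDR = 1.31e-09) and fall (log2FC −0.93 ± 0.18 (SE), FDR = 0.000292). *Kcnj2*, the inward rectifier potassium channel that sets the resting potential, rose in *Tug1* KD myotubes (log2FC 1.78 ± 0.31 (SE), FDR = 1.47e-05), was widely spread at EPS 0h (18.5–79.8 (median 38.4) RPM) and was not called lower at EPS 3h (−0.49, FDR = 0.311). *Zfp36l1*, which binds AU-rich elements and speeds decay of the RNA that carries them, held rank 60, with medians of 124.9, 245 and 188 RPM in control myotubes. Its *Tug1* KD rise was called (log2FC 1.01 ± 0.14 (SE), FDR = 5.26e-07) and its fall was not (FDR = 0.0506). *Tet3*, which oxidises methylcytosine in DNA, rose (log2FC 1.68 ± 0.14 (SE), FDR = 8.37e-12) and fell (log2FC −0.50 ± 0.14 (SE), FDR = 0.00886) in *Tug1* KD myotubes and stayed above Rest (1.18, FDR = 5.33e-09).

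At EPS 3h the largest remaining differences from Rest in *Tug1* KD myotubes were those of *Bicdl2* (2.75), *Ppp1r3c* (2.11), *Usp17la* (1.77), *C2cd4c* (1.50) and *Dok3* (1.38). *Bicdl2*, an adaptor for vesicle transport, had the largest rise of any member, from 0.783–1.31 (median 1.18) to 6.71–17.2 (median 11.6) RPM in control and 0.762–1.74 (median 1.01) to 5.62–18.04 (median 14.6) RPM in *Tug1* KD myotubes, and at EPS 3h it was at 4.64–10.1 (median 7.18) RPM. *C2cd4c* was near the detection limit at Rest (0.0508–0.798 (median 0.31) RPM in *Tug1* KD myotubes, where 3 counts in a library of median depth are 0.154 RPM), so its ratio is imprecise. The lowest values at EPS 3h against Rest were those of *Pdik1l* (−0.17), *Gbx1* (−0.05), *Wnt2b* (−0.04), *Lrrc32* (−0.02) and *BC048403* (0.05), and none of these was called. The members called neither lower nor higher at EPS 3h against EPS 0h in *Tug1* KD myotubes numbered 25, of which *Dlx2*, *Tor4a*, *C2cd4c*, *Impg2*, *Vinac1*, *Zfp493*, *Tnfsf15*, *Dok3*, *Hsd17b1* and *Lrrc32* ranked first, with log2FC from −0.71 for *Vinac1* to −0.46 for *Lrrc32*. With the replicate number as a block 16 of these 25 were called lower, *Dlx2*, *Tor4a*, *Impg2*, *Vinac1*, *Tnfsf15*, *Dok3* and *Lrrc32* among them. That left 9 members uncalled, and the share of all genes called lower with the block is not given here.

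The other lists held few members, and their counts are for *Tug1* KD myotubes, at EPS 0h against Rest and then at EPS 3h against EPS 0h. Of all genes tested, 24.4% were higher and 21.2% lower, and then 8.59% higher and 7.13% lower. KLF factors held *Klf15* (1 of 9 tested), with 3 higher and 1 lower at EPS 0h and then 1 higher and 2 lower. The list of NF-kB feedback and mRNA decay genes held *Zfp36l1* (1 of 13), with 3 higher and 7 lower and then 3 higher and 4 lower. The cytokine and growth factor list held *Fgf21* (1 of 21), with 10 higher and 5 lower and then 3 higher and 2 lower. The p53 list held *Sesn2* (1 of 14), with 4 higher and 4 lower and then 4 higher and 3 lower. The list of MYC, bHLH and homeobox factors held *Bhlhe41* and *Snai2* (2 of 15), with 6 higher and 2 lower and then 1 higher and 6 lower. Of 15 clock genes only *Bhlhe41* was a member, with 6 higher and 3 lower and then 0 higher and 4 lower.

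The list of BMP, TGF-beta and Notch targets held *Nog* and *Hey1* (2 of 13), with 6 higher and 5 lower at EPS 0h, and then 1 higher and 7 lower at EPS 3h. Of those 7, *Nog*, *Hey1* and *Heyl* had been called higher at EPS 0h, and *Id1*, *Id2* and *Id3*, inhibitors of bHLH factors, had already been called lower there. NR4A and CREB targets held no member (14 tested), with 8 higher and 1 lower at EPS 0h and then 3 higher and 0 lower. RGK GTPases, which restrain calcium channels, held none either (4 tested), with 3 higher and 1 lower at EPS 0h. The 2 called lower at EPS 3h against EPS 0h were *Rrad* (−0.51, FDR = 0.00489), which had risen, and *Rem1* (−1.06, FDR = 2.84e-06), which was already lower at EPS 0h (−0.74, FDR = 9.53e-05). The AP-1 list had 6 higher and 2 lower at EPS 0h and the EGR, IER and SRF list 5 higher and 3 lower, and in each 6 were higher at EPS 3h than at EPS 0h and 0 were lower. Of all genes tested, 24.4% were higher and 21.2% lower at EPS 0h. At EPS 3h against EPS 0h, 8.59% were higher and 7.13% lower.

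The members were compared with the 1196 other genes past the rise limit on features that the rule did not use, as a description without a test. Members were short genes. Their median span from first to last base was 10.4 kb, against 41.5 kb for the other genes past the rise limit and 26.8 kb for the other protein-coding genes. They had a median of 4 exons, against 10 and 9, and 14 members (23.3%) had at most 2 exons, against 9.05% and 6.89%. *Nog* was the shortest at 1.70 kb, and *Prickle2* the longest at 335 kb. Transcript length differed less, with a median of 3480 bases against 4573 and 3516.

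**Figure D4:**
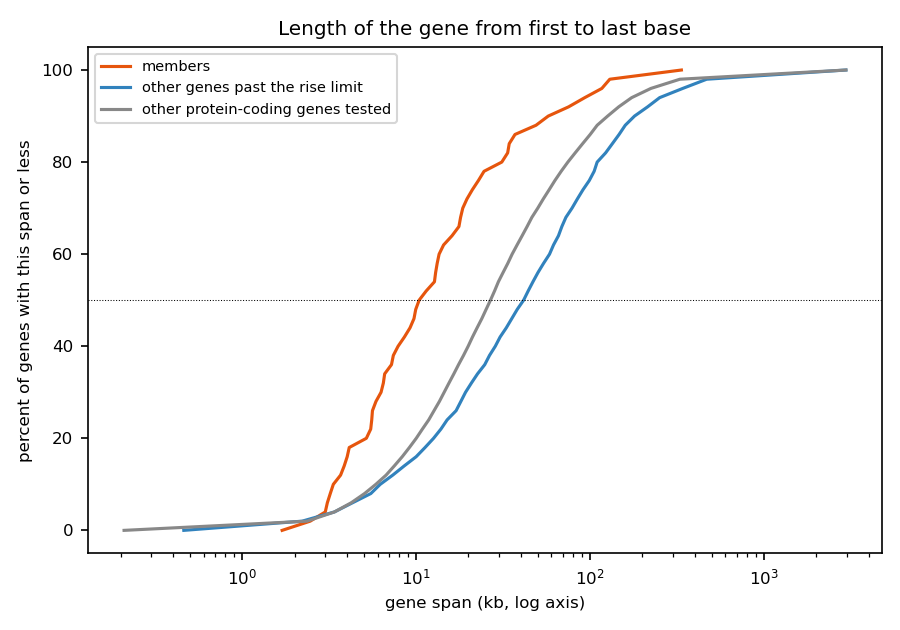
Cumulative share of genes (vertical axis, percent) with a span from first to last base up to the value on the horizontal axis (kb, log axis), for the 60 members, the other genes past the rise limit and the other protein-coding genes tested. The curve of the members reaches 50% at 10.4 kb, left of the others at 41.5 and 26.8 kb.

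The AU-rich element core TATTTAT, read in the sense strand, was found in the 3′ UTR of 27 of the 58 members with a 3′ UTR of known sequence (46.6%). The share was 44.9% in the other genes past the rise limit and 32.6% in the other protein-coding genes. Median 3′ UTR lengths were 1834, 1813 and 1362 bases in the same order, and the part of length in these shares was not tested. *Fgf21* had 4 such matches in a 3′ UTR of 143 bases, and *Thbd*, *Slc25a25* and *Zfp36l1* had 3 each.

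Promoters were read from 250 bases before to 50 bases after the start of the canonical transcript on GRCm39. The motifs searched, on both strands, were chosen with the members known. The E-box CACGTG, a palindrome bound by basic helix-loop-helix factors such as MYC, USF, CLOCK and TFEB, was present in 13 of 60 members (21.7%), against 8.79% of the other genes past the rise limit and 9.89% of the other protein-coding genes. At least 2 E-boxes were present in 8 members (13.3%), among them *Klf15*, *Dlx2*, *Cln3*, *Igf2bp3*, *Lpar2*, *Rad9a* and *Tet3*, against 0.838% and 1.01%. With the flanks of TCACGTGA, which contains the E-box, the share was 10% of members (among them *Ppp1r3c*, *Dlx2*, *Cln3*, *Igf2bp3* and *Rad9a*) against 2.09% and 1.61%. Promoters of members also had a higher median GC content, at 62.3% against 58.7% and 58%, and a median of 19 CpG against 16 and 17. The part of base composition in the E-box shares was not tested. A match is a stretch of letters and not a binding site shown in these cells.

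The composite element TGATGNAA, which C/EBP and ATF factors, ATF4 among them, can bind as a pair, was present in 5 of 60 members (8.33%), *Chac1*, *Cln3*, *Herpud1*, *Fgf21* and *Bglap3*, against 3.35% of the other genes past the rise limit and 2.47% of the other protein-coding genes. The cAMP response element TGACGTCA was present in 3 members (5%), *BC048403*, *Zfp493* and *Rel*, against 4.86% and 3.28%. The AP-1 site TGACTCA was present in 3 (5%), *Impg2*, *Lpar2* and *Sox9*, against 4.27% and 3.82%, the heat shock element GAANNTTC in 1 (1.67%) against 7.20% and 5.93%, the CArG box in 1 (1.67%), *Tmc4*, against 1.59% and 1.32%, the TATA box TATAAA in 6 (10%) against 10.2% and 8.18%, and the CCAAT box CCAAT in 28 (46.7%) against 37.8% and 39.5%.

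The stretches below show these elements in 4 members with the composite element and in 4 with an E-box. They were read from GRCm39, 5′ to 3′ on the strand of the gene, with the composite element (or its reverse complement) and the E-box in capitals. Distances count back from −1, the base before the canonical start. *Chac1* is chr2:119181519-119181548 on the + strand (−170 to −141), *Herpud1* is chr8:95112927-95113021 on + (−110 to −16), *Fgf21* is chr7:45264915-45265064 on the − strand (−150 to −1), and *Cln3* is chr7:126182533-126182562 on − (−143 to −114).
Chac1: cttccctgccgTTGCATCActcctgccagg
Herpud1: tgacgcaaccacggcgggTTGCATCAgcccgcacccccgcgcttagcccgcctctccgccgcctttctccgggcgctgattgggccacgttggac
Fgf21: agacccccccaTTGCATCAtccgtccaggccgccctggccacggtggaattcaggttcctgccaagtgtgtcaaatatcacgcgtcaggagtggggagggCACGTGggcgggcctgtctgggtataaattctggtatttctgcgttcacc
Cln3: tcaagCACGTGATGGAAggctcacgggtac
The same 8 letters of the composite element stand in *Chac1*, *Herpud1* and *Fgf21*. In *Cln3* the element overlaps an E-box, and the *Chac1*, *Fgf21* and *Cln3* stretches lie upstream of the canonical start but inside the annotated span of these genes.

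The E-box stretches are *Klf15* at chr6:90439316-90439366 on + (−125 to −75), *Ppp1r3c* at chr19:36714071-36714130 on − (−60 to −1), *Dlx2* at chr2:71377103-71377252 on − (−150 to −1) and *Rad9a* at chr19:4251685-4251774 on − (−130 to −41). *Klf15* has another E-box at −55, outside the stretch.
Klf15: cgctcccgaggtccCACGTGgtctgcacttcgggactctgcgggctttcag
Ppp1r3c: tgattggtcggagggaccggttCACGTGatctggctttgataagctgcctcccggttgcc
Dlx2: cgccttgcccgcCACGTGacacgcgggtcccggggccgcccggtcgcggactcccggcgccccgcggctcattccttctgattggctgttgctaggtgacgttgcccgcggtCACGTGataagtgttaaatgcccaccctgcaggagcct
Rad9a: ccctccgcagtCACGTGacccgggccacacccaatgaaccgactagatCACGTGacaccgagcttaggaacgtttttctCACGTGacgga
*Rad9a*, a DNA damage checkpoint clamp subunit, holds 3 E-boxes within these 90 bases. Its medians were 33.6, 58.4 and 49.5 RPM in control and 29, 60.8 and 45.4 RPM in *Tug1* KD myotubes, and its rise was called (log2FC 0.99 ± 0.14 (SE), FDR = 5.54e-07) and its fall was not (−0.33, FDR = 0.103).

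The last comparison asked whether *Tug1* KD changed the members at a given condition. The control libraries chose the members as low at Rest, high at EPS 0h and low at EPS 3h, so the choice alone can place them low, high and low in control beside *Tug1* KD myotubes. At Rest the *Tug1* KD libraries had 5 members lower, against 4.47% of all genes tested that were lower, and 0 were higher, against 5.54% of all genes. At EPS 0h 2 were lower and 3 higher, against 6.07% and 8.25% of all genes, and at EPS 3h 1 was lower and 3 higher, against 5.11% and 6.38%. The medians over the members were −0.13, 0.00 and 0.07. DESeq2 and limma-voom also called 0 members higher at Rest, where 2 passed an unadjusted p of 0.05. With the replicate number as a block 9 were lower and 1 higher at Rest. The block gave 6 lower and 5 higher at EPS 0h, and 4 lower and 6 higher at EPS 3h. The share of all genes called with the block is not given here.

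The 5 members lower at Rest were *Dusp2* (log2FC −0.88 ± 0.19 (SE), FDR = 0.00139), *Lpar2* (log2FC −0.69 ± 0.19 (SE), FDR = 0.013), *Fgf21* (log2FC −0.71 ± 0.18 (SE), FDR = 0.00651), *Txnip* (log2FC −0.70 ± 0.23 (SE), FDR = 0.0406) and *Hey1* (log2FC −0.49 ± 0.14 (SE), FDR = 0.0223). *Lpar2*, a receptor for lysophosphatidic acid, was at 2.67–3.39 (median 2.96) RPM in control myotubes and 1.22–2.53 (median 1.66) RPM after *Tug1* KD, and *Txnip*, which binds thioredoxin and curbs glucose uptake, at 147–196 (median 167) and 95.2–113.9 (median 104.1) RPM. The libraries of *Lpar2*, *Fgf21* and *Txnip*, like those of the uncalled *Myf5* and *Thbd*, did not overlap between the LNA groups at Rest, and those of *Dusp2* and *Hey1* did. *Wnt2b* lay apart in the other direction, at 1.08–1.74 (median 1.42) RPM after *Tug1* KD and 0.551–1.06 (median 0.972) RPM in control myotubes. These are 5 members (8.33%) apart and lower and 1 (1.67%) apart and higher, against 3.73% and 4.34% of all genes tested. In replicates 4 to 6 alone 4 members were called higher in *Tug1* KD myotubes at Rest, none of which was called over all libraries. The share of all genes called higher in that set alone is not given here.

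*Fgf21* was the member called in all 3 conditions, with log2FC of −0.71 at Rest, log2FC −0.57 ± 0.18 (SE), FDR = 0.0265 at EPS 0h and log2FC −0.57 ± 0.18 (SE), FDR = 0.0322 at EPS 3h. Its log2FC at EPS 0h against Rest was 0.77 in control and 0.91 in *Tug1* KD myotubes. *Slc25a25* was lower at EPS 0h (log2FC −0.39 ± 0.12 (SE), FDR = 0.0207), where its libraries spanned 43.6–57.97 (median 52.6) RPM in *Tug1* KD and 60.6–76.9 (median 66.9) RPM in control myotubes, without overlap, as in 3.11% of all genes tested.

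At Rest the FDR of *Fgf21* was 0.0501 with replicates 1 to 3 only and 0.0688 with replicates 4 to 6 only. At EPS 0h the call was lost in either set of replicates alone (−0.46, FDR = 0.250, and −0.65, FDR = 0.0796), with the compared groups alone (FDR = 0.0918) and without a filter (FDR = 0.101). At EPS 3h it was lost in replicates 4 to 6 alone (−0.36, FDR = 0.410), with the compared groups alone (FDR = 0.0900) and without a filter (FDR = 0.110). Of all members called between the LNA groups, the 5 at EPS 0h were each lost in replicates 1 to 3 alone, and the 4 at EPS 3h were each lost in replicates 4 to 6 alone and with the compared groups alone, all with the same direction.

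*Ppp1r3c* was higher in *Tug1* KD myotubes at EPS 0h (log2FC 0.54 ± 0.18 (SE), FDR = 0.0352) and EPS 3h (log2FC 0.71 ± 0.18 (SE), FDR = 0.0076), and at Rest it was not called (−0.19, FDR = 0.681). All 6 of its *Tug1* KD libraries were above all 6 control libraries at EPS 0h, as in 4.83% of all genes tested. Its EPS 0h call was lost in replicates 1 to 3 alone (FDR = 0.123), in replicates 4 to 6 alone (FDR = 0.0792) and under library size scaling (FDR = 0.0528), and its EPS 3h call in replicates 4 to 6 alone (FDR = 0.138) and with the compared groups alone (FDR = 0.117). *Zfp469*, a zinc finger protein linked to collagen (log2FC 0.54 ± 0.16 (SE), FDR = 0.0203), and *Cep350*, a centrosome protein (log2FC 0.65 ± 0.21 (SE), FDR = 0.0364), were higher at EPS 0h, with medians of 108 against 68.6 RPM and 130.1 against 83.98 RPM, and their libraries overlapped. At EPS 3h *Impg2*, a matrix proteoglycan (log2FC 1.03 ± 0.34 (SE), FDR = 0.0455), and *Bhlhe41* (log2FC 0.38 ± 0.12 (SE), FDR = 0.025) were higher, also with overlap. In control myotubes *Impg2* had a median of only 0.645 RPM at Rest and 0.684 RPM at EPS 3h. It passed the filter on low values only with *Tug1* KD libraries counted, so its call draws on the libraries that admitted it.

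**Figure D5:**
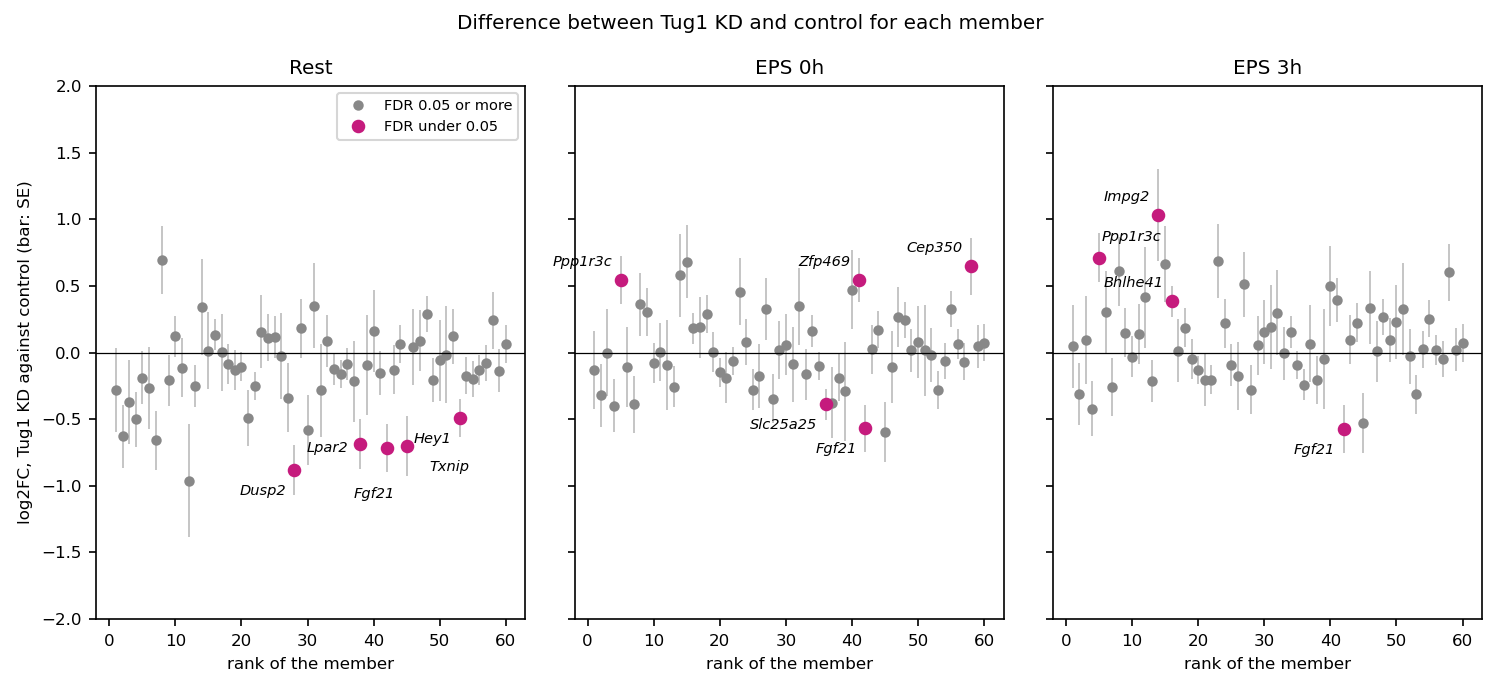
log2FC of Tug1 KD against control myotubes (vertical axis, with SE as bars) for each member by rank (horizontal axis) at Rest, EPS 0h and EPS 3h. Coloured and named points passed an FDR of 0.05, and these are 5, 5 and 4 of the 60 members. Fgf21 is below 0 in all panels and Ppp1r3c is above 0 at EPS 0h and EPS 3h.

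The EPS 0h response of the members in *Tug1* KD myotubes minus that in control myotubes had a median of 0.15 on the log2 scale, with 44 members above 0, and is given without a test because the control response chose the members. The fall to EPS 3h differed by a median of 0.05. The set of replicates moved the first value, with a median of 0.32 over replicates 1 to 3 and −0.01 over 4 to 6. When the 60 genes were chosen in control replicates 4 to 6 and read in replicates 1 to 3, the median was 0.36 with 48 above 0, and with the sets exchanged it was −0.02 with 28 above 0.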

How the data were processed

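RNA of 36 libraries was measured by stranded poly-A RNA sequencing. The authors trimmed reads with fastp 0.14.1, checked them with FastQC 0.11.7 and aligned them to GRCm39 with STAR 2.5, per the labels, and deposited whole-number counts per gene without normalization for 55416 genes. The counter and its strand setting are not given in the sources used here. The 1492 genes without a name hold 0.0327% of counts. No library was left out, and every pair of libraries of a group differed by more than counting error (lowest chi-square over its degrees of freedom 4.26).

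Members were chosen by the rule given in the report on CPM by library size. Tests used the counts as deposited in R 4.3.3 with edgeR 4.0.16: genes of any biotype with at least 1 CPM in at least 12 libraries (13995), TMM, the robust quasi-likelihood model over all 6 groups, and Benjamini-Hochberg FDR over all genes with a call under 0.05. The SE is the log2FC divided by the square root of the F statistic. Alternatives were DESeq2 1.42.0, limma-voom (limma 3.58.1), library size scaling, other filters, a block for the replicate number or for replicates 1 to 3 against 4 to 6 (the labels do not name the experiment of a library), the sets of replicates 1 to 3 and 4 to 6 alone, and the compared groups alone. On simulated data for EPS 0h against Rest in *Tug1* KD myotubes with 200 of 13995 genes changed by 1 on the log2 scale, edgeR recovered 91% with 8 false calls. The simulated libraries were drawn independently, without sets of replicates. In the data 24.4% of genes were called higher and 21.2% lower there, so these figures do not carry over to the real libraries. Same-numbered libraries deviated together in every pair (correlation over 0.1 across genes) for EPS 0h against Rest and EPS 3h against EPS 0h in *Tug1* KD myotubes and for *Tug1* KD against control at EPS 0h and EPS 3h, and not for the other 2 comparisons. The first principal component separated replicates 1 to 3 from 4 to 6 in 5 of 6 groups.

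The members, lists and motifs were chosen with earlier results of these data known. Named in detail are the first 12 by rank, the members of the gene lists, those called between LNA groups, the 5 largest and 5 smallest changes at EPS 3h in *Tug1* KD myotubes, up to 10 without a call and those at the limits of the rule. Others described, and *Myod1*, *Pax7*, *Asns*, *Trib3*, *Atf4*, *Atf5*, *Ddit3*, *Hspa5*, *Heyl*, *Hes1*, *Hes6*, *Lfng*, *Jag1* and *Notch1*, were chosen after their values were seen. Gene models and 3′ UTRs are those of GENCODE M39 on GRCm39, which is the build of the files. Exons of 3 members overlap another gene on the same strand (*Tmc4* with *Leng1*, *Zfp493* with *Gm9625*, *Eme2* with *Mapk8ip3*) and those of 29 members overlap a gene on the other strand. Values of 1 member are not reported here by name, and it stays in all counts and medians.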

Additional observations from a re-analysis of the deposited data

Results flagged for a closer look

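Among the 22 members described in detail, 132 sets of 6 libraries were checked for a library far from the other 5. A single case was found, *Impg2* at EPS 3h in control replicate 1, with 1.60 RPM against 0.546 to 0.853 RPM in the other 5 libraries, a gap of 0.709 of the whole range. The limit used is Dixon's critical value at the 95% level, which chance passes in about 1 in 20 sets. *Impg2* is a low gene and is among the members called higher in *Tug1* KD myotubes at EPS 3h (log2FC 1.03 ± 0.34 (SE), FDR = 0.0455). It passed the filter on low values only with *Tug1* KD libraries counted.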

How the results depend on the processing

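For the 10 alternatives the share of all genes called is not given, so their counts show only how far the processing moved them. Across them the count of members higher at EPS 0h than Rest in *Tug1* KD myotubes ranged from 53 to 59. That of members still higher at EPS 3h ranged from 24 to 38, and both stayed within 1.5 times of the values reported. The count of members lower at EPS 3h than EPS 0h ranged from 16 to 51, and only replicates 1 to 3 alone (16, of which 13 were among the 35) moved it further than that. The choice of the members kept 53 under TMM scaling, 55 and 50 with pseudocounts of 1 and 0.1 CPM, and 41 in control replicates 4 to 6, and fell to 32 in control replicates 1 to 3 and to 32 in the *Tug1* KD libraries.

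Counts of members called between *Tug1* KD and control myotubes were small and moved easily, and the cause was not tested. With the replicate number as a block (paired fit) there were 1 higher and 9 lower at Rest, 5 higher and 6 lower at EPS 0h and 6 higher and 4 lower at EPS 3h, and the block kept every call made without it in these comparisons. Blocking on the sets of replicates gave 1 higher and 8 lower at Rest, 4 lower at EPS 0h and 2 lower at EPS 3h. Without a filter there were 2 lower at Rest, 0 lower at EPS 0h, and 1 higher and 0 lower at EPS 3h. Replicates 1 to 3 alone gave 0 higher and 0 lower at EPS 0h and 1 higher at EPS 3h. Replicates 4 to 6 alone gave 4 higher at Rest and 1 higher and 2 lower at EPS 3h. The compared groups alone gave 1 higher at Rest, and 0 higher and 0 lower at EPS 3h. For 40 results on single members, 348 of 400 alternative values kept direction and side of the threshold, 52 kept the direction only, and none reversed. The median difference of the EPS 0h response was 0.13 under library size scaling, an alternative chosen after seeing the data. The mean level of 14 of 60 members stayed below 5 RPM in every group.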
